A study of Mus musculus with 4 samples.

Results

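Solitary narrow Ring1b sites were taken here as regions of 200 or 400 bp with no other listed region within 10000 bp on either side on the same chromosome. Width and spacing alone chose them, not the measured levels. Of 6371 regions associated with Ring1b peaks of WT cells, 270 (4.24%) met this rule: 245 sites of 400 bp and 25 sites of 200 bp, on all 20 chromosomes of the table. They were 14.2% of the 1906 regions of these widths. "Solitary" refers to this table, so a region bound only in K36M cells could lie nearby and would not be listed.

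Ring1b was measured by chromatin immunoprecipitation and sequencing (ChIP-seq) in C3H10T1/2 cells, a mesenchymal progenitor line from C3H mouse embryos, at passage 10 to 15. One group stably expressed FLAG-HA-tagged wild-type (WT) histone H3.3 and the other FLAG-HA-tagged H3.3 with the K36M substitution, so that both carried a tagged H3.3 transgene. Each group had 1 Ring1b library and 1 input library, of which only the former was used. The labels name no deletion of the cells' own H3 genes, and no source used here says whether a line is 1 clone. The table holds no expression values, so the labelled cell type was not checked against marker genes.

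Ring1b is the ubiquitin ligase subunit of Polycomb repressive complex 1, which places ubiquitin on histone H2A and keeps developmental genes silent. The complex is brought to chromatin by chromobox proteins that read trimethylated lysine 27 of histone H3, and by subunits that recognise unmethylated CpG islands. It is best known for broad domains over developmental regulators. H3.3K36M inhibits enzymes that methylate lysine 36 of histone H3, a mark that limits the enzyme of lysine 27 methylation, and it recurs in cartilage tumours. The study asked how the distribution of Ring1b over the genome differs between cells with WT and K36M H3.3. The table names no genes, and sites are given by their mm9 coordinates, counted from 1.

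Values are RPM, reads in a region per 1000000 reads of the library, where 1 WT read is worth 0.0335 RPM and 1 K36M read 0.0317 RPM. The sites therefore rest on few reads: a median of 55 in WT (18 to 238) and 26 in K36M (1 to 225). With 1 library per form of H3.3, no value carries an error between cultures and no test between the forms was possible. Intervals of ratios are 95% exact (Clopper-Pearson) counting intervals, and those of medians are 95% order-statistic intervals across sites, which are not replicates. The former cover counting error only, and the latter reflect the spread between sites. Reads carry no molecular identifiers and may be copies of 1 molecule, so counting errors and counting intervals may be too narrow. The log2 ratio is log2((K36M + 0.1)/(WT + 0.1)) in RPM, which understates the change of low sites, and counts of sites past a fold use it. Folds of single sites are plain ratios of RPM.

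Ring1b was lower in K36M cells at most solitary narrow sites, by about 50% at the median site. The median site held 1.84 RPM in WT (quartiles 1.47 and 2.28) and 0.824 RPM in K36M (quartiles 0.412 and 1.48). The median log2 ratio was -0.996 (interval -1.16 to -0.82), against -0.65 over all regions, and relative to that median the sites stood at -0.34. K36M was below WT at 237 of the 270 sites (87.8%; 85.1% over all regions). Reductions of at least 2-fold occurred at 135 sites (50.0%), where the share over all regions was 33.5%. Reductions of at least 4-fold occurred at 48 sites (17.8%; 8.26% over all regions). Because regions were selected in the WT library, the part of this decrease that comes from that selection cannot be told apart from a difference between the forms of H3.3.

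The summed signal was reduced less than that of the median site. The sum over all 270 sites was 539 RPM with WT H3.3 and 322 RPM with K36M, a ratio of 0.598 (interval 0.583 to 0.613). The sites with the most reads kept more of their signal, which the sum weights and the median does not. In each library the sites held a small part of the signal of the table, 1.5% of the summed RPM in WT and 1.41% in K36M.

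**Figure D1:**
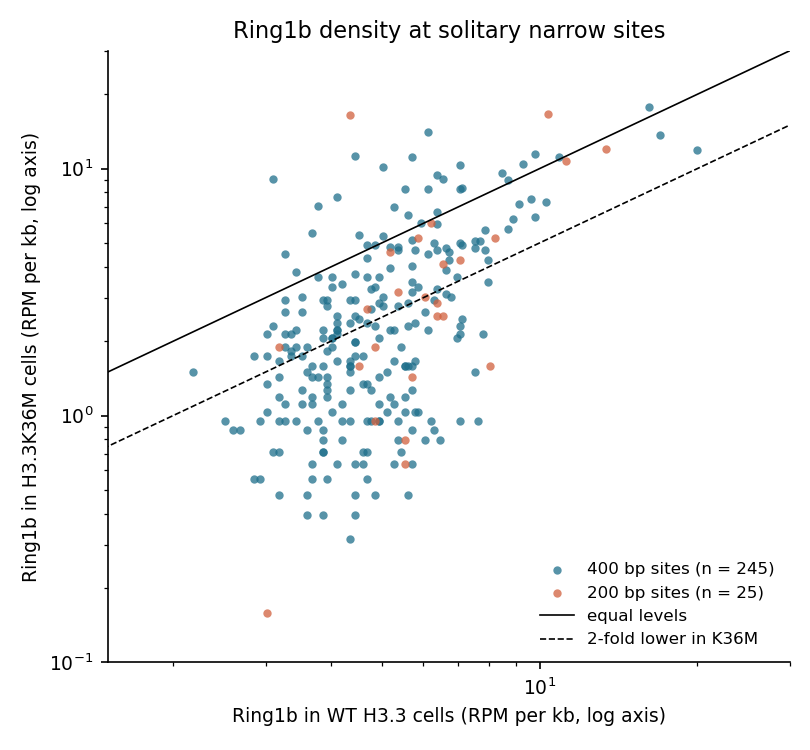
Ring1b density in RPM per kb at the 270 solitary narrow sites, WT on the horizontal and K36M on the vertical log axis, with 1 point per site. Most points lie below the line of equal levels, and 138 lie on or below the line of 2-fold lower levels, while 4 of the 6 points of highest WT density have counting intervals that include equality.

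WT levels at the sites were less spread than K36M levels, as they were over all regions. Among the 400 bp sites, the 10th and 90th percentiles of the WT value were 1.31 and 2.85 RPM, a range of 2.18-fold. In K36M they were 0.285 and 2.81 RPM, a range of 9.84-fold. The SD of the log2 level was 0.48 in WT and 1.22 in K36M, where counting error alone gives 0.19 and 0.33. The same order held in solitary regions of 600 to 2000 bp (ranges of 2.68-fold in WT and 5.35-fold in K36M). Over all regions, whose widths differ, the ranges were 6.94-fold and 12.3-fold. The lower edge of the WT range is set in part by the choice of WT peaks, so the ranges of the 2 libraries are not on equal terms. Ranks of the 2 libraries were only partly shared across these 245 sites of equal width (Spearman's rho 0.48). The spread of K36M levels at sites of similar WT level is thus well above counting error with each read taken as 1 molecule. Its spread between cultures is unknown.

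The ratio of single sites differed from 1 by more than counting error at most sites, as it did at most regions. The counting interval lay wholly below 1 at 185 sites (68.5%; 65.1% over all regions) and wholly above 1 at 14 (5.19%; 3.06% over all regions). It included 1 at 71 (26.3%; 31.9% over all regions). The SD of the log2 ratios without a pseudocount was 1.07 over the sites, and the median counting error of one site was 0.36. The ratios formed 1 broad distribution with its highest count, 60 sites, between -1 and -0.5. The quartiles were -1.68 and -0.46.

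**Figure D2:**
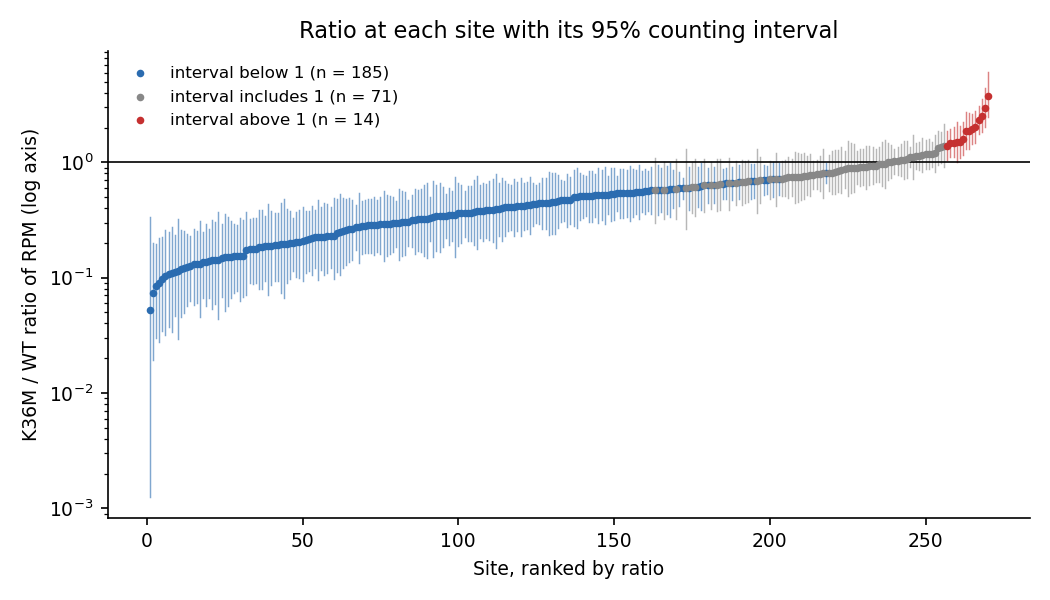
K36M to WT ratio of RPM (log axis) of the 270 sites in rank order, each with its 95% counting interval. Intervals lie below 1 at 185 sites, include 1 at 71 and lie above 1 at 14, and the ratio rises gradually along the ranks.

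The strongest reductions were found at sites of ordinary WT level. These sites were chosen after their values were seen, as those with the lowest log2 ratios. A 400 bp site at chromosome 8, 86046801 to 86047200, went from 1.74 RPM (WT) to 0.127 RPM (K36M), or 52 against 4 reads, 13.7-fold lower with an interval of 5.06-fold to 52.3-fold. At chromosome 1, 127584601 to 127585000, a WT level of 2.24 RPM stood against a K36M level of 0.190 RPM, 11.8-fold lower (5.15 to 33.3). A further site on chromosome 1, 55361201 to 55361600, was 11.2-fold lower (4.51 to 35.9). Their WT densities, 4.36, 5.61 and 4.44 RPM per kb, lay near the median of 4.69 for 400 bp sites, and only 4 to 6 reads were left in K36M. Few sites were nearly empty: 39 of the 270 had 10 or fewer K36M reads, and only 1 had 3 or fewer. That one, a 200 bp site at chromosome 4, 85960401 to 85960600, had 18 reads in WT and 1 in K36M, a ratio of 0.0526 with an interval of 0.00126 to 0.333.

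Among the 135 sites with at least the median mean level of both libraries, reductions reached 2-fold at 27 (20%; 33.5% over all regions), against 108 of the other 135. This split uses the K36M level and so the change itself. The lowest was at chromosome 1, 137651801 to 137652200, where WT cells gave 3.02 RPM (90 reads) and K36M cells 0.602 RPM (19 reads), a 5.01-fold lower level (interval 3.03 to 8.70). Its nearest listed region lay 12.6 kb away. The site at chromosome 1, 164024201 to 164024600, went from 3.12 RPM (WT) to 0.856 RPM (K36M), 3.64-fold lower (2.35 to 5.81). The next 5 by ratio lay on chromosomes 2 (102134801), 10 (30699801), 3 (145277601), 6 (133717401) and 11 (100260601). These 5 were 3.47-fold to 3.59-fold lower, with 66 to 69 reads in WT and 20 or 21 in K36M, and each counting interval excluded 1. A mean level that includes K36M favours sites that kept signal, which is why these folds are smaller than those above.

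Increases in K36M cells were few. K36M exceeded WT at 33 sites (12.2%; 14.9% over all regions), by at least 1.5-fold at 9 (3.33%; 1.22% over all regions) and at least 2-fold at 4 (1.48%; 0.314% over all regions). The largest was a 200 bp site at chromosome 13, 105250401 to 105250600, where WT cells gave 0.871 RPM (26 reads) and K36M cells 3.297 RPM (104 reads), a ratio of 3.79 (interval 2.44 to 6.06). Its WT density of 4.36 RPM per kb shared rank 168 of 270, while its K36M density of 16.5 RPM per kb ranked 3 of 270. At chromosome 10, 125375401 to 125375800, WT cells gave 1.24 RPM and K36M cells 3.65 RPM, a ratio of 2.94 (2.01 to 4.38). The site at chromosome 8, 3412001 to 3412400, had 53 reads in WT and 142 in K36M, a ratio of 2.54 (1.84 to 3.54), and that at chromosome 19, 36203801 to 36204200, had a ratio of 2.31 (1.75 to 3.07). Ratios of 2.02, 1.95 and 1.87 were found at chromosome 2, 22851601, chromosome 10, 21553401, and chromosome 7, 68561401, each with an interval above 1. In these 7 sites K36M density lay between 7.69 and 16.5 RPM per kb, far above the median of 2.14. They were chosen by ratio among sites of at least median mean level, and both measures favour a high K36M density.

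Of the 6 sites of highest WT density, 4 had ratios that counting error could not tell from 1. The densest, chromosome 12, 79451801 to 79452200, held 7.97 RPM (19.9 RPM per kb) with WT H3.3 and 4.76 RPM with K36M, a ratio of 0.596 (interval 0.483 to 0.735). The second, chromosome 16, 35981601 to 35982000, held 6.80 and 5.48 RPM, a ratio of 0.806 whose interval reached 0.993. The other 4, whose intervals included 1, were chromosome 2, 181747401 (6.47 and 7.13 RPM, ratio 1.10), chromosome 4, 118220801 (2.68 and 2.41 RPM over 200 bp, ratio 0.899), chromosome 6, 3000801 (2.24 and 2.16 RPM over 200 bp, ratio 0.960), and chromosome 13, 111393201 (4.36 and 4.44 RPM, ratio 1.02). Of the 20 densest sites in WT, 11 were also among the 20 densest in K36M, 11 had an interval that included 1 (55.0%; 31.9% over all regions), and 2 were at least 2-fold lower (10.0%; 33.5% over all regions). A part of read pile-up without Ring1b was not tested, because no input values were used. No site exceeded 20 RPM per kb in either library.

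The 400 bp sites were divided at the quartiles of WT level into 4 classes, and the ratio was closest to 1 in the highest class. Its median was -1.16 on the log2 scale in the lowest class (0.871 to 1.54 RPM in WT, 65 sites), -1.19 and -1.20 in the middle classes, and -0.58 (interval -0.77 to -0.46) in the highest (2.35 to 7.97 RPM, 61 sites). The share of sites at least 2-fold lower was 56.9%, 55.9%, 58.3% and 31.1% in these classes. Median K36M levels were 0.571, 0.697, 0.856 and 1.90 RPM. The WT value is also the denominator of the ratio. Classes of the K36M value, its numerator, gave medians from -2.13 to -0.09, an order that the division itself favours.

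Other 400 bp regions outside dense runs did not show the smaller reduction at high WT level. There were 806 regions of 400 bp that had a neighbour within 10000 bp and lay outside dense runs, which are stretches of at least 10 regions with gaps of at most 2000 bp. Within the same WT limits, their medians were -1.07, -1.31, -1.27 and -1.44. In the first 3 ranges the intervals of both sets overlapped. Above the upper quartile of the sites and up to their highest WT value, the 61 solitary sites had a median of -0.58 (interval -0.77 to -0.46) and the 332 others -1.44 (-1.63 to -1.21), with 31.1% and 61.7% at least 2-fold lower. The median WT levels there were 2.81 and 3.22 RPM and the median K36M levels 1.90 and 1.20 RPM. That difference rests on regions of the same 2 libraries and has no replicate check. Most of these other regions (731 of 806) touched another region, so that they do not count separate sites. Regions in dense runs were left out of this comparison, a choice made after the data were seen. With them, all 935 regions of 400 bp with a neighbour had a median of -1.04 and a summed ratio of 0.569, against 0.467 for the 806. At least 2-fold lower were 482 of the 935 (51.6%) and 479 of the 806 (59.4%), so regions in runs were rarely that much lower. The contrast at high WT level may therefore be smaller with them, and their highest WT range was not examined.

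**Figure D3:**
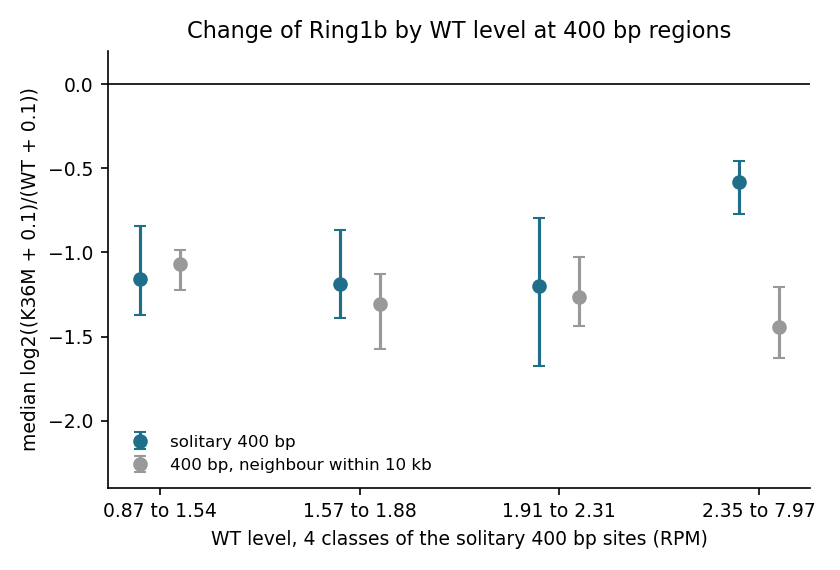
Median log2 ratio of 400 bp regions by WT level in RPM, in the 4 level classes of the solitary sites; bars are 95% order-statistic intervals over regions. Solitary sites (blue) and regions with a neighbour within 10 kb outside dense runs (grey) overlap in the first 3 ranges and part in the highest, at -0.58 and -1.44.

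The place of the solitary sites among narrow regions depended on dense runs and on width. Over all 1636 narrow regions with a neighbour within 10000 bp the median log2 ratio was -0.50, which is higher than the -0.996 of the solitary sites. Of these regions, 499 lay in dense runs, and outside runs the median of the other 1137 was -1.07. At 400 bp the solitary sites stood at -1.01 (interval -1.19 to -0.83) and the 806 others outside runs at -1.22 (-1.34 to -1.14). Of these others, the 75 that touched no region had a median of -0.995 (-1.40 to -0.74), close to that of the solitary sites. The 731 that touched another region had -1.25 (-1.37 to -1.15). At 200 bp the medians were -0.70 (-1.21 to -0.60) for the 25 solitary sites and -0.57 (-0.78 to -0.41) for 331 others. Only 3.44% of the 200 bp regions were solitary, against 20.8% of the 400 bp regions.

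The 25 sites of 200 bp rested on fewer reads. They held a median of 35 reads in WT and 18 in K36M, and 1.17 and 0.571 RPM. Densities of 5.86 (WT) and 2.85 (K36M) RPM per kb were above the 4.69 and 2.06 of the 400 bp sites. K36M was lower at 23 of the 25 (92%, against 85.1% over all regions) and by at least 2-fold at 11 (44%, against 33.5%). Intervals included 1 at 11 of the 25 (44%, against 31.9% over all regions). The difference of the medians, 200 bp minus 400 bp, was 0.31 on the log2 scale, and the intervals of both medians overlapped.

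Wider solitary regions had lower densities, and those over 2000 bp had ratios closer to 1. With the same spacing rule, the median log2 ratio was -0.98 (interval -1.09 to -0.87) for 332 regions of 600 to 2000 bp, -0.63 for 1372 regions of 2200 to 8000 bp and -0.50 (-0.55 to -0.46) for 857 regions over 8000 bp. Levels were at least 2-fold lower in 49.4%, 29.2% and 16.3% of them. Median WT density was 4.86 RPM per kb at the narrow sites and 2.46, 1.18 and 0.737 in these classes. In K36M the medians were 2.14, 1.19, 0.732 and 0.506 RPM per kb. WT density at 266 of the 270 narrow sites exceeded that of every solitary region over 8000 bp, and in K36M 260 sites were still above the median of that class. Density divides by the width that defines these classes, so the division itself favours this order and the separation is no independent result. Values include background reads, whose level was not measured here and whose part in the ratios of low-density regions was not tested. Log2 ratios were also more spread at the narrow sites (SD 0.92) than in the class over 8000 bp (SD 0.48), where a region held a median of 276 WT reads.

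**Figure D4:**
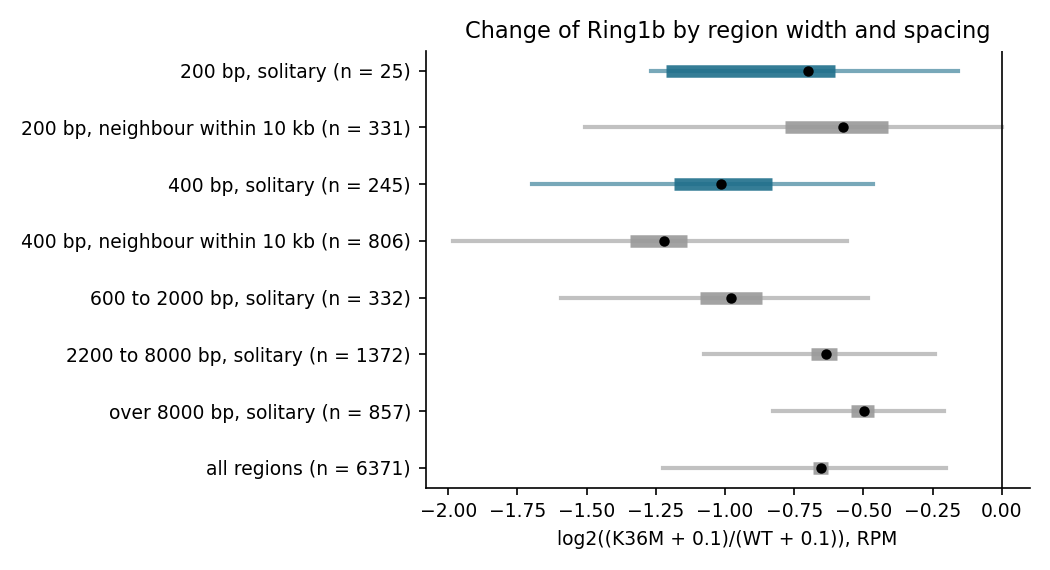
Log2 ratio by width and spacing: points are medians, thick bars their 95% order-statistic intervals and thin bars the quartiles, with solitary narrow sites in blue and regions with a neighbour taken outside dense runs. The 400 bp solitary sites (-1.01) lie with the 600 to 2000 bp class (-0.98), and the class over 8000 bp lies at -0.50.

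The few sites just inside the spacing rule had low ratios. The 5 sites with a nearest gap of 10400 to 12000 bp ranged from -2.22 to -0.83 with a median log2 ratio of -2.01, below the lower quartile of all sites, and the 6 narrow regions just outside the rule, with gaps of 8800 to 10000 bp, had -0.95. At the edge of the width rule, 15 solitary regions of 600 bp had a median of -0.87.

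Isolation of the sites ranged widely, from 10.4 to 4286 kb to the nearest listed region (median 92.8 kb). The median log2 ratio was -1.14 at 83 sites with a nearest gap up to 50 kb (interval -1.39 to -0.89), -1.11 at 97 sites up to 200 kb, -0.74 at 73 sites up to 1000 kb (-1.10 to -0.59) and -0.85 at 17 sites beyond that. Their intervals overlapped, and across sites distance and log2 ratio were weakly related (Spearman's rho 0.15, 270 sites). For distance and WT level rho was -0.06. The most isolated site, 200 bp at chromosome 7, 12595801 to 12596000, had 5365 and 4286 kb to its neighbours and had levels of 1.64 RPM (WT) and 1.05 RPM (K36M; ratio 0.637, interval 0.397 to 1.01). The next were chromosome 7, 113380001 (1.21 and 0.539 RPM, ratio 0.447, interval 0.235 to 0.816), chromosome 1, 104524601 (3.48 and 2.28 RPM, ratio 0.655), and chromosome 14, 82465001 (1.88 and 1.46 RPM, ratio 0.777). All 4 were lower in K36M, where 85.1% of all regions were. The intervals of the first and the last included 1, as did those of 31.9% of all regions.

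**Figure D5:**
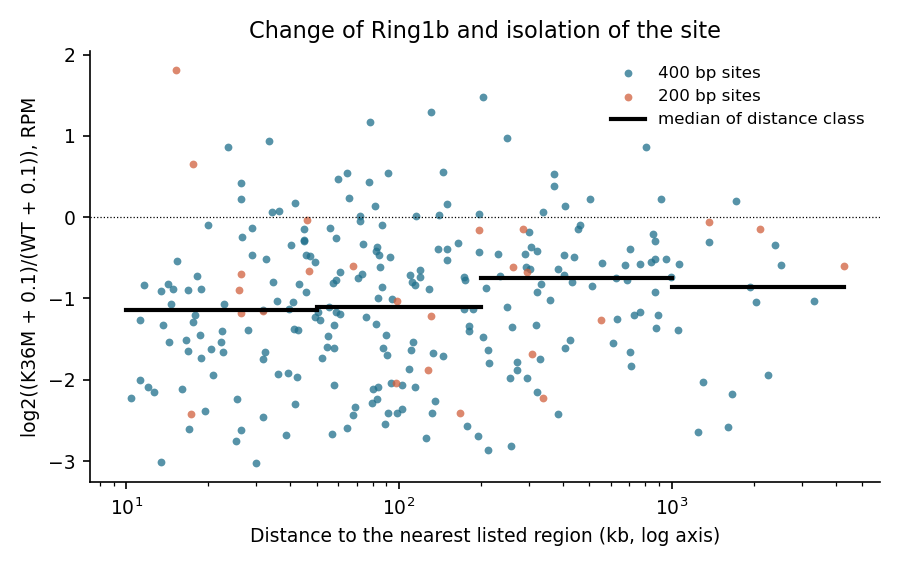
Log2 ratio of each site against the distance to its nearest listed region in kb (log axis); horizontal lines are medians of the 4 distance classes. The medians run from -1.14 in the nearest class to -0.74 at 200 to 1000 kb, with a wide spread in every class.

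The nearest listed region was usually wider than the site. It had a median width of 4400 bp, was wider than 2000 bp for 181 sites and wider than 8000 bp for 66. For those 181 sites the median log2 ratio was -1.07 at the site and -0.58 at the neighbour, and the site had the lower ratio in 128 pairs. Over all 270 sites the site had the lower ratio in 170 pairs. For the 90 sites with a gap over 200 kb the medians were nearly equal, at -0.76 for the sites and -0.71 for the neighbours, and the site was lower in 48. In those 181 pairs, median WT density was 4.77 RPM per kb at sites and 0.918 at neighbours, an order that division by width favours. Spearman's rho between their log2 ratios was 0.48 for 83 sites with a gap up to 50 kb, 0.24 for 97 sites up to 200 kb and 0.05 for 90 sites farther away. These values share both libraries and some neighbours, and they describe the table.

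Solitary sites that followed each other on a chromosome showed a like order in their medians, with few close pairs. The absolute difference of their log2 ratios had a median of 0.46 in 7 pairs up to 100 kb apart, 0.57 in 36 pairs up to 1000 kb and 0.84 in 207 pairs farther apart. Of the 7 close pairs, those on chromosomes 1, 19 and 8 went against it, with differences of 2.10, 1.10 and 0.90, above 0.84. The rest of the 7 differed by 0.14 to 0.46. In the closest pair, on chromosome 1, the site at 127584601 stood at -3.01 and that at 127598401, 13.4 kb away, at -0.91. These 2 sites held 2.24 and 1.88 RPM in WT and 0.190 and 0.951 RPM in K36M.

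The sites were spread over the chromosomes, with 3 on chromosome X and 23 on chromosome 4. Their share of the listed regions ran from 1.82% on chromosome 17 to 8.02% on chromosome 9. The median log2 ratio of the sites was negative on every chromosome, as was that of all regions. On 18 of the 20 the median of the sites was below that of all regions there. Among the 14 chromosomes with at least 10 sites, chromosome 6 had the lowest median (-1.45) and chromosome 9 the highest (-0.40). At least 2-fold lower were 12 of 18 sites on chromosome 6 (66.7%; 40.6% over all its regions) and 5 of 17 on chromosome 9 (29.4%; 30.7% over all its regions). On chromosome 14 all 13 sites were lower, where 97.0% of all its regions were, and 12 had an interval below 1, where 88.5% of all its regions had. Chromosome 2 had the lowest share of at least 2-fold lower sites among these chromosomes, 4 of 21 (19.0%; 38.7% over all its regions).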

How the data were processed

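The authors deposited 1 table of 6371 mm9 regions with a value for each Ring1b ChIP-seq library, headed RPKM. Bowtie 1.0.0 and the build mm9 are named per the submitters' processing notes. No source used here gives the peak caller, its threshold or how reads were counted. All deposited values are whole multiples of 1 step per library (tolerance 0.01 reads), whatever the width, so they were read as RPM and not as RPKM. The steps imply about 29900000 (WT) and 31500000 (K36M) reads, and division by them gave whole reads. Gaps run from the end of a region to the next start. Ratios, exact conditional intervals and order-statistic intervals were computed with Python 3.11.15 and SciPy 1.17.1, and the interval was tested on simulated reads. With 1 library per form, no test between forms was made. The members and lists were chosen with earlier results of these data known.

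Named sites were the 7 lowest and 7 highest log2 ratios among sites of at least median mean log2 level, the 6 with the highest WT density and the 4 with the largest nearest gap; others are said to be chosen after their values were seen. No genome of the build mm9 was used here, so no sequence, motif or gene name is given, and the gene table on GRCm38 was not used. Alternatives covered the pseudocount, low reads, spacing, density, centring, width and the rule for calls. The comparisons with nearest regions, between successive sites and with other 400 bp regions of equal WT level were chosen after the data were seen.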

Additional observations from a re-analysis of the deposited data

How the results depend on the processing

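The median log2 ratio of -0.996 stayed negative under all 10 alternatives. It was -0.57 with a pseudocount of 1, -0.34 when centred on the median of all regions and -0.70 for 200 bp sites alone. The count of 135 sites at least 2-fold lower became 47 with a pseudocount of 1, 72 after centring, 88 with no neighbour within 50000 bp (187 sites) and 11 for the 25 sites of 200 bp; at the latter settings fewer sites enter. The count of 4 sites at least 2-fold higher became 2, 17 and 1 with a pseudocount of 1, centring and 200 bp sites alone, and 9 at 1.5-fold, 14 by counting interval and 13 by an exact binomial test on the reads, which is a comparison of 2 libraries only and calls 180 sites lower. The summed ratio of 0.598 was 0.621 with no neighbour within 50000 bp, 0.712 for 200 bp sites and 0.578 without 6 sites near chromosome ends. The difference between solitary and other narrow regions, -0.50, was -0.26 with a pseudocount of 1 and -0.13 for 200 bp regions outside dense runs. It turned to 0.074 without dense runs, to 0.027 for 400 bp regions and to 0.21 for 400 bp regions outside dense runs. The difference of 0.31 between 200 and 400 bp sites moved within its interval in all 8 alternatives, to 0.0029 at the lowest. The binomial test, the dense runs, the 400 bp and 200 bp comparisons and the chromosome ends were chosen after seeing the data. Where no construction shows it, the cause was not tested. At a median of 55 and 26 reads, the median counting error of a site's log2 ratio was 0.36, and changes within that error were not detectable at single sites. No paired analysis was possible because each form of H3.3 has 1 Ring1b library.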

Other observations

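Values of sites near chromosome ends are given as a description, since the set was chosen after its values were seen. They were 6 sites that start by position 3500000 or are the first or last listed region of their chromosome. Their log2 ratios ran from -1.78 to 1.29 with a median of 0.18, and the median of the other 264 sites was -1.02, within that range. The 4 that start by position 3500000 were chromosome 6, 3000801 (2.24 RPM with WT H3.3 and 2.16 RPM with K36M), chromosome 8, 3412001 (1.78 and 4.50 RPM), chromosome 9, 3007201 (2.45 and 3.297 RPM), and chromosome 9, 3034001 (2.85 and 3.33 RPM). The last listed region of chromosome 2, at 181747401, held 6.47 and 7.13 RPM, the highest K36M value of all sites. The last listed region of chromosome 8, at 130823001, went the other way, from 1.44 RPM (WT) to 0.349 RPM (K36M). Without these 6 sites, the highest WT class of 400 bp sites had a median of -0.60 over 58 sites. Whether these places also gather reads in input was not tested.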
